A study of Bos taurus with 25 samples.

Results

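The genes described here encode the nuclear subunits of the mitochondrial respiratory chain and of ATP synthase. They were chosen by name alone, as every gene of the bovine array whose symbol starts with NDUFA, NDUFB, NDUFC, NDUFS, NDUFV, UQCR, ATP5 or COX4 to COX8, together with SDHA to SDHD and without the NDUFAF assembly factors. This gave 80 genes with 166 probes, of 27841 genes and 43653 probes on the array. Of these genes 11068 carry a symbol of the reference, and the others, counted in every share of all genes below, are transcript names of the array that were not paired with one. By complex, 36 genes belong to complex I, 4 to complex II, 7 to complex III, 15 to complex IV and 18 to complex V. Of these 18, ATP5IF1 encodes an inhibitor of ATP synthase and is counted with the subunits here. NDUFA4 and its relative NDUFA4L2 were counted with complex IV, in which the NDUFA4 protein sits. The reference holds 88 symbols that meet the same rule, and 8 of them (COX5A, COX6C, COX7ALP1, COX7B2, COX7C, COX8C, NDUFS8 and UQCRC2) were not found on the array by name. The subunits encoded by mitochondrial DNA are outside this rule.

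The respiratory chain carries electrons from NADH (complex I) and succinate (complex II) through coenzyme Q, complex III and cytochrome c to oxygen at complex IV. The protons pumped on the way drive ATP synthase, also called complex V. Complex II is at the same time the succinate dehydrogenase of the TCA cycle, and several subunits of complex IV exist as isoforms whose use differs between tissues, such as the heart and muscle forms COX6A2, COX7A1 and COX8B. In the dairy cow the liver makes glucose from propionate, by way of a B12-dependent step that yields a TCA cycle intermediate, whereas the mammary gland takes up glucose for milk synthesis.

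Lactating Holstein cows received a 5 mL intramuscular injection every week, and liver and mammary biopsies were taken 64 ± 3 days after calving. Control cows were injected with saline, the B9 group with 320 mg of folic acid, the B12 group with 10 mg of cyanocobalamin, and the B9 + B12 group with both at these doses. Each sample was the labelled RNA of 1 biopsy of 1 cow on a 1-colour array: 12 liver arrays (3 control, 3 B9, 4 B12 and 2 B9 + B12) and 13 mammary arrays (3, 3, 4 and 3). All 13 cows were lactating and 12 of them gave both tissues, so the groups differ in the injection and there was no group without injection. A biopsy holds every cell type of the tissue, and fewer cells of a type and less RNA per cell cannot be told apart in such samples.

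The arrays lay on 8 slides, of which 1, with 3 liver arrays, was scanned on a later day. Signal over background ranged from 2.30 to 10.5 on liver arrays and from 2.92 to 5.06 on mammary arrays. Of the 166 subunit probes, 165 were well above background on all 25 arrays and none was saturated. The liver arrays of cow 57 (B9) and cow 32 (B9 + B12) stood apart, with a median correlation of 0.971 with the other liver arrays, where the rest had 0.988 to 0.991. That of cow 32 also had the signal over background of 2.30 and lay on the slide scanned later. The results below that changed without these arrays are given both ways. Between the tissues, leaving out the liver arrays of cows 57 and 32 gave 32 subunit genes higher in the liver (24.8% of all genes) and 28 lower (37.0%), in place of 32 and 26. Markers matched the labelled tissues: all 7 hepatocyte genes found were higher in the liver, and 6 of 7 mammary epithelial genes were lower there, the exception being KRT8 (1.37 higher on the log2 scale).

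The first comparison, which the sampling of both tissues allows, was that of the liver with the mammary gland. In this comparison the complexes did not move as 1 block. The 4 complex II genes were 2.23- to 2.79-fold higher in the liver (1.16 to 1.48 on the log2 scale, and up to 2.73 to 3.33 in the processed table), and the 5 core subunits of complex I described here were also higher, whereas 8 of the 15 complex IV genes were lower, 3 of them (COX4I2, COX6A2 and NDUFA4L2) under every scaling of the arrays that was tried. Across all 80 genes, 32 were higher in the liver and 26 lower at FDR ≤ 0.05 by limma, and 22 did not pass the test. Over all genes of the array, 24.9% were higher and 36.7% were lower, so that the 58 subunits that passed in either direction stand beside a background of 61.6%. When dim probes were left out, which took the genes tested to 20325 and left all 80 subunits in, 58 subunits passed beside 76.4% of all genes. A difference of at least 2-fold was found for 6 subunit genes higher in the liver, against 7.73% of all genes, and for 5 lower, against 8.81%. These values come from the scanner signal after quantile normalization over all 25 arrays, since the values of the deposited processed table match a normalization within each tissue, as inferred from the values.

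**Figure D1:**
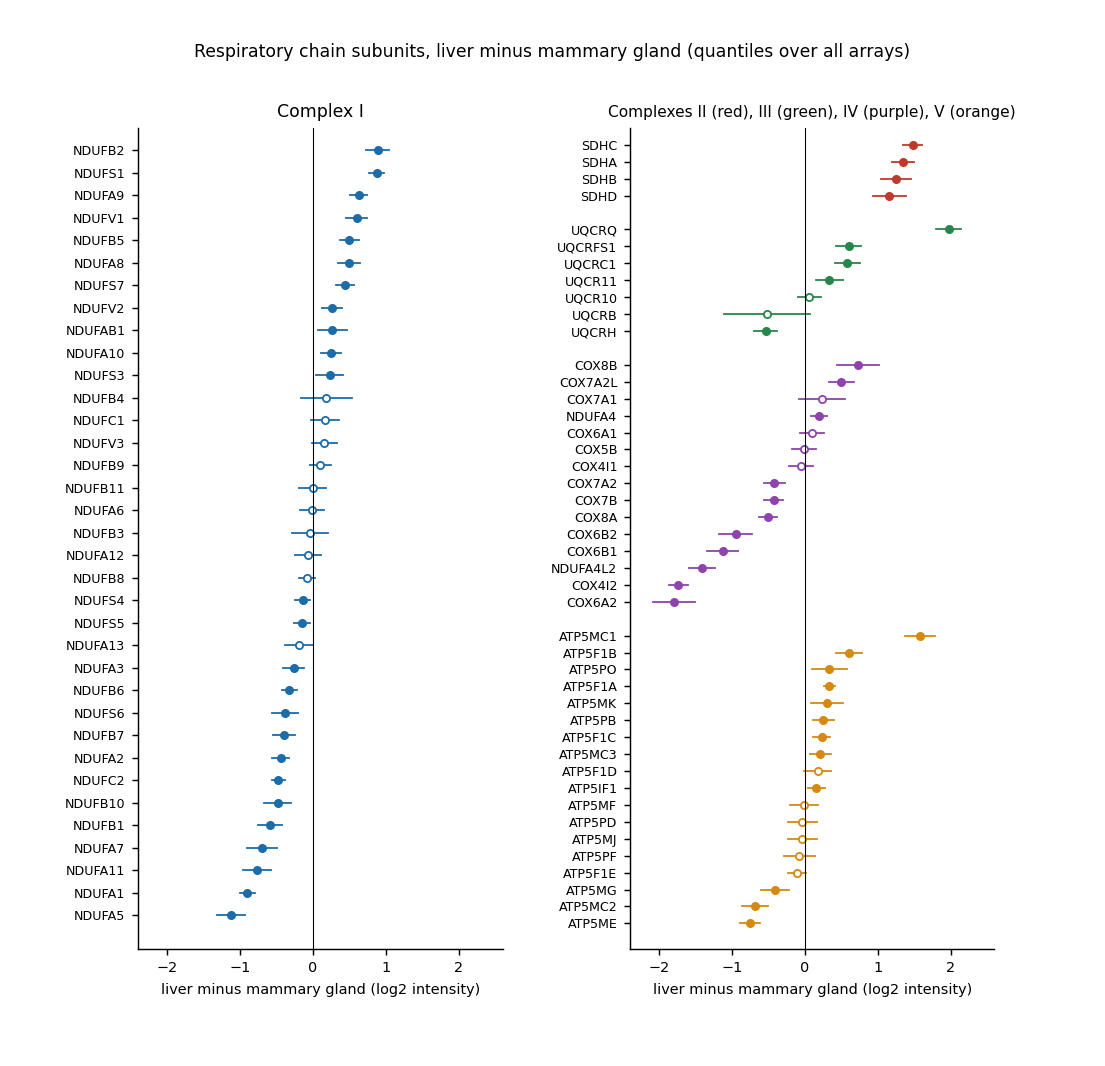
Difference between liver and mammary gland for 79 of the 80 subunit genes, on the x axis as liver minus mammary log2 intensity after quantile normalization over all 25 arrays, with complex I on the left and complexes II to V on the right. Points are limma estimates, lines are 95% confidence intervals, and filled points passed FDR ≤ 0.05. The 4 SDH genes lie between 1.16 and 1.48, and UQCRQ (1.97) and COX6A2 (-1.79) are the ends of the range. Of the 26 genes called lower in the liver, only NDUFA4L2, COX4I2 and COX6A2 were called lower under all 5 scalings tried, and 6 under the 4 other than the processed table.

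Complex II oxidises succinate and passes the electrons to coenzyme Q. SDHA, its flavoprotein subunit (NCBI gene 281480), had log2 intensities of 12.58 to 13.00 in hepatic tissue (median 12.72) and 11.03 to 11.76 in mammary tissue (median 11.40). SDHB, the iron-sulfur subunit, had 11.70 to 12.35 in hepatic tissue (median 12.07) and 10.54 to 11.36 in mammary tissue (median 10.80). No liver array overlapped a mammary array for either gene. The differences were 1.34 (SE 0.071, 95% interval 1.20 to 1.49, adjusted P = 1.2e-12) and 1.25 (SE 0.096, 95% interval 1.05 to 1.45, adjusted P = 5.5e-10).

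The membrane anchors of the complex behaved alike. SDHC (NCBI gene 327696) had 13.10 to 13.58 in hepatic tissue (median 13.41) and 11.54 to 12.05 in mammary tissue (median 11.93). SDHD, the other anchor, had 10.57 to 11.74 in hepatic tissue (median 11.38) and 9.97 to 10.29 in mammary tissue (median 10.07). Again the tissues did not overlap, and all 4 SDH genes were higher in the liver in 12 of 12 cows. The differences were 1.48 for SDHC (SE 0.064, adjusted P = 4.5e-14) and 1.16 for SDHD (SE 0.107, adjusted P = 8.2e-09). The lowest hepatic SDHD values were those of cows 32 and 57, and without these arrays the SDHD difference was 1.32.

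Complex I takes electrons from NADH, and its core subunits form the path on which they travel to coenzyme Q. The 5 described here (NDUFV1, NDUFV2, NDUFS1, NDUFS3 and NDUFS7) were all higher in the liver, with differences between 0.23 and 0.87. Core and accessory subunits were grouped after their values had been seen. NDUFS1, the largest iron-sulfur subunit, had 8.44 to 8.98 in hepatic tissue (median 8.75) and 7.59 to 8.06 in mammary tissue (median 7.86), without overlap. Its difference was 0.87 (SE 0.050, 1.83-fold, adjusted P = 5.1e-12), and it was higher in the liver in 12 of 12 cows.

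The 30 accessory subunits of complex I, which surround the core and serve its assembly and stability, were divided. Of these, 6 were higher in the liver, 14 were lower and 10 did not pass the test, and of the 14 only NDUFA5 was called lower under every scaling other than the processed table, in which none was. NDUFB2, the member with the largest excess in the liver, had 11.65 to 12.28 in hepatic tissue (median 11.77) and 10.56 to 11.34 in mammary tissue (median 11.02). The tissues did not overlap, and the difference was 0.89 (SE 0.075, 1.85-fold, adjusted P = 2.1e-09). NDUFA5 lay at the other end, with 10.89 to 12.07 in hepatic tissue (median 11.60) and 12.32 to 12.88 in mammary tissue (median 12.71). Its difference was -1.13 (SE 0.089, 2.18-fold lower, adjusted P = 7.6e-10), but the sign turned to 0.60 in the processed table. NDUFA1 and NDUFA11 were lower by -0.90 and -0.77, and turned to 1.03 and 1.17 in that table.

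Among the genes of complex III, which passes electrons from coenzyme Q to cytochrome c, 4 were higher in the liver, 1 (UQCRH) was lower and 2 did not pass. UQCRQ, a small supernumerary subunit (NCBI gene 286885), had the largest excess of all 80 genes. Its liver values ran from 11.93 to 12.76 (median 12.53) and its mammary values from 10.01 to 10.78 (median 10.51). The ranges were more than 1 log2 unit apart, with a difference of 1.97 (SE 0.084, 95% interval 1.80 to 2.15, 3.92-fold, adjusted P = 3.5e-14). Both UQCRQ probes had the same sign, with 1.53 and 2.41. UQCRFS1, the Rieske iron-sulfur protein at the catalytic centre, was higher by 0.60. UQCRH, the hinge protein, was lower by -0.54 in the quantile-normalized values but had 1.42 in the processed table.

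Complex IV reduces oxygen, and its nuclear subunits surround a catalytic core made in the mitochondrion. Of its 15 genes, 3 were higher in the liver, 8 were lower and 4 did not pass, with a median of -0.42. COX4I1, the common form of subunit 4, had 13.55 to 14.30 in hepatic tissue (median 13.71) and 13.61 to 14.10 in mammary tissue (median 13.86), and the tissues overlapped. The COX4I1 difference of -0.06 did not pass (adjusted P = 0.58), and it was 0.43 to 1.78 under the 3 scalings not based on joint quantiles. COX4I2, the other isoform of this subunit (NCBI gene 618339), had 6.24 to 6.59 in hepatic tissue (median 6.35) and 7.60 to 8.54 in mammary tissue (median 8.10). Every mammary array exceeded every liver array, with a difference of -1.74 (SE 0.063, 95% interval -1.87 to -1.61, 3.34-fold lower in the liver, adjusted P = 2.5e-15).

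Subunit 6A likewise has isoforms. COX6A1, the form found in most tissues, had 12.91 to 13.66 in hepatic tissue (median 13.15) and 12.82 to 13.33 in mammary tissue (median 13.12). COX6A2, the heart and muscle form (NCBI gene 282200), had 6.15 to 6.60 in hepatic tissue (median 6.29) and 7.30 to 8.72 in mammary tissue (median 8.26). COX6A1 overlapped between the tissues, whereas COX6A2 did not. The differences were 0.10 for COX6A1 (adjusted P = 0.29) and -1.79 for COX6A2 (SE 0.139, 95% interval -2.08 to -1.50, 3.47-fold lower in the liver, adjusted P = 5.5e-10). COX6A2 had 2 probes, with differences of -1.93 and -1.66.

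The muscle forms did not share a direction. COX8B, the muscle form of subunit 8, was higher in the liver by 0.72 (adjusted P = 1.2e-04, 11 of 12 cows), although with normexp and 75th percentile scaling the value was 0.03 (adjusted P = 0.88), and without the liver arrays of cows 32 and 57 it was 0.51. COX7A1, the muscle form of subunit 7A, gave 0.23 with an adjusted P of 0.21. Of the 10 skeletal muscle marker genes, 0 were higher and 5 lower in the liver, CKM (muscle creatine kinase) by -0.62 and MYH2 (a myosin heavy chain) by -0.52. Their summed level, on the log2 scale, was 9.74 to 10.02 in the mammary gland and 9.54 to 10.07 in the liver, and its part in the isoform differences was not tested. The 5 fibroblast markers were all lower in the liver, with sums of 10.89 to 11.53 against 12.40 to 13.35, and the 5 macrophage markers were all higher, with 15.57 to 15.95 against 12.59 to 13.90. The adipocyte markers summed to 8.86 to 9.47 in the liver and 15.78 to 16.59 in the mammary gland, with FABP4 (a fatty acid binding protein) at -9.07, LPL (lipoprotein lipase) at -6.67 and LEP (leptin) at -0.06, whereas CIDEC (1.16) and PLIN1 (0.09), both of the lipid droplet, were higher in the liver.

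**Figure D2:**
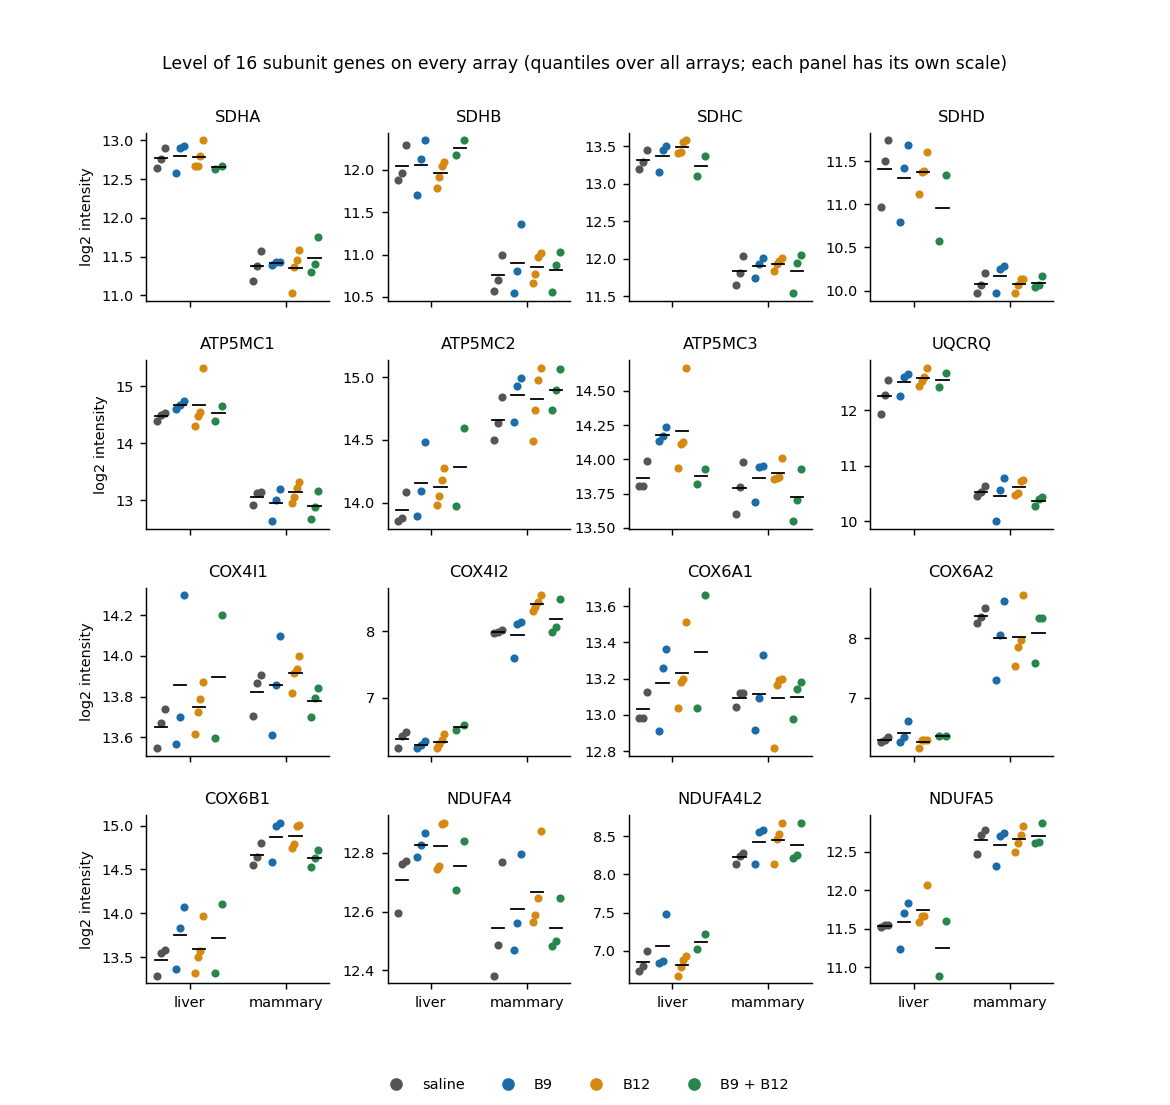
Log2 intensity of 16 subunit genes on each of the 25 arrays after quantile normalization over all arrays, with liver arrays left and mammary arrays right in each panel, each panel on its own scale. Points are arrays, colours are saline, B9, B12 and B9 + B12, and bars are group means. The tissues are apart for the SDH genes, UQCRQ, ATP5MC1, COX4I2, COX6A2, NDUFA4L2, NDUFA5 and COX6B1 (the last 2 reverse in the processed table), and overlap for COX4I1 and COX6A1.

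NDUFA4L2, a relative of NDUFA4 that is known to be induced in low oxygen, had 6.67 to 7.47 in hepatic tissue (median 6.87) and 8.13 to 8.68 in mammary tissue (median 8.28). The tissues did not overlap, and the difference was -1.41 (SE 0.084, 2.66-fold lower in the liver, adjusted P = 9.5e-12). NDUFA4 itself was higher in the liver by 0.19 (adjusted P = 0.0031, 10 of 12 cows). Its hepatic and mammary values overlapped.

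COX6B1, a subunit that joins the monomers of complex IV, had 13.29 to 14.11 in hepatic tissue (median 13.56) and 14.53 to 15.03 in mammary tissue (median 14.74). The difference of -1.13 (SE 0.099, 2.19-fold lower, adjusted P = 3.5e-09) turned to 0.77 in the processed table. Its testis isoform COX6B2 gave -0.95 (adjusted P = 1.5e-07) and had 0.14 in that table. This value averages 2 probes that disagreed, with -1.89 and -0.02. COX7A2 and COX8A, the widespread forms of subunits 7A and 8, were lower by -0.42 and -0.51, and both turned positive under all 3 scalings not based on joint quantiles, with 0.06 to 1.41 and 0.07 to 1.43. COX7A2L, which takes part in joining complexes III and IV into supercomplexes, was higher by 0.50 (adjusted P = 2.4e-05, 11 of 12 cows).

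In complex V, 9 genes were higher in the liver, 3 were lower (none of them under every scaling) and 6 did not pass. The 3 genes for the c subunit, which forms the rotating ring, encode the same mature protein from different transcripts, and they differed in direction. ATP5MC1 had 14.31 to 15.33 in hepatic tissue (median 14.55) and 12.64 to 13.33 in mammary tissue (median 13.06), without overlap. The difference was 1.57 (SE 0.098, 95% interval 1.37 to 1.78, 2.97-fold, adjusted P = 1.9e-11). ATP5MC3 was higher by 0.21 (adjusted P = 0.013), whereas ATP5MC2 was lower by -0.69 (adjusted P = 9.1e-07), a direction that turned to 1.15 in the processed table. Of the 5 subunits of the catalytic head, ATP5F1A (0.33), ATP5F1B (0.61) and ATP5F1C (0.23) were higher and the other 2 did not pass.

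The order of the genes held under other ways to scale the arrays, but the zero point did not. The median over the 80 genes was 0.02 after joint quantiles, 0.49 with the scanner's processed signal at the 75th percentile, 0.62 with normexp at that percentile, and 1.81 in the processed table, where all genes had a median of -0.03, -0.58, -0.87 and 0.48. With joint quantiles and no offset these medians were 0.02 and -0.10. Under the 3 scalings not based on joint quantiles, 51, 64 and 76 subunit genes were higher in the liver and 8, 6 and 3 lower, against 22.2%, 14.9% and 80.8% of all genes higher and 56.3%, 75.7% and 8.25% lower. Relative to the median of all genes, the subunits were thus 0.05 higher in the liver with joint quantiles and 1.07 to 1.49 higher with the other 3. Across the 80 genes, which are no independent replicates, the Spearman correlation of each of the 4 other scalings with joint quantiles was 0.894 to 0.999.

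A call in the same direction under all 5 scalings was made for 30 of the 80 genes higher in the liver, against 13.1% of all genes. They comprised the 4 SDH genes, 12 of complex I (these 5 core subunits among them), 4 of complex III, 2 of complex IV and 8 of complex V. Only 3 genes, COX4I2, COX6A2 and NDUFA4L2, were lower under all 5, against 8.25% of all genes. The processed table bears on this count, since its column medians lay near 6.98 on liver arrays and 6.13 on mammary arrays and 80.8% of all genes were called higher in the liver there. Under the other 4 scalings 6 genes were lower, these 3 with NDUFA5, COX6B1 and COX6B2, against 33.8% of all genes, and 30 were higher. The differences grew from -1.74 to -3.63 for COX4I2 and from -1.79 to -3.90 for COX6A2 with the processed signal, and were -1.47 and -1.59 in the processed table. The processed signal has no offset added to low values, and the part of this in the growth was not tested. UQCRQ ranged from 1.97 to 3.68 and SDHC from 1.48 to 3.33. Relative to the median subunit, 34 genes were above and 34 below it under every scaling, and 12 changed side.

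**Figure D3:**
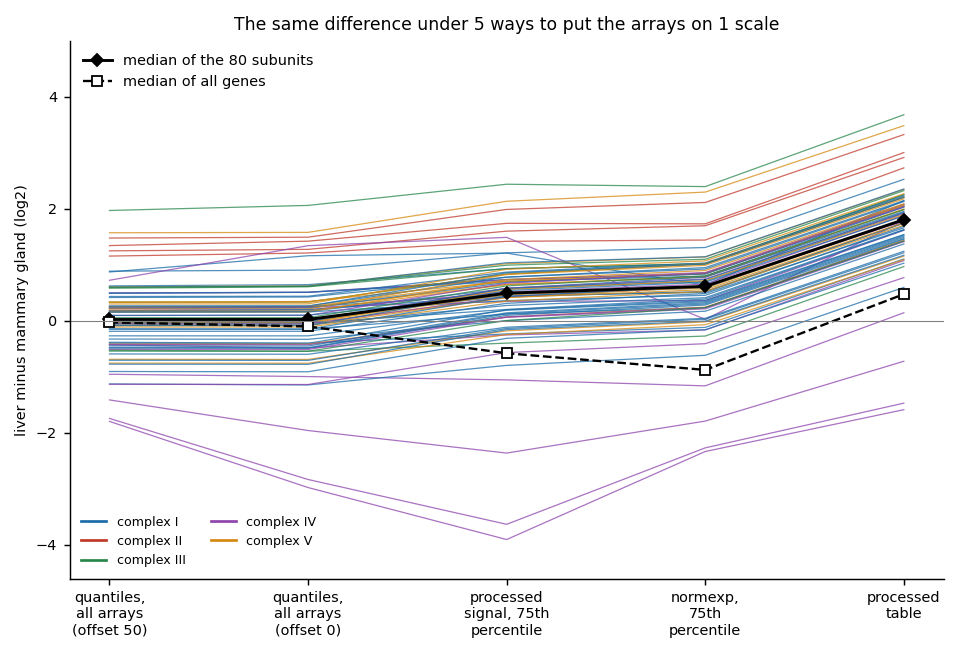
Difference between liver and mammary gland (y axis, log2) of the 80 subunit genes under 5 ways to scale the arrays (x axis); each line is a gene, coloured by complex, with the median of the subunits as black diamonds and that of all genes as white squares. The subunit median runs from 0.02 to 1.81, and COX4I2, COX6A2 and NDUFA4L2 stay below 0 throughout.

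Several probes differed between slides, and this touched a few of the subunits. With the treatment groups in the fit and both tissues together, 3 of the 80 genes differed between slides at FDR ≤ 0.05, against 1.42% of all genes: NDUFB4 (adjusted P = 1.85e-04), UQCRB (adjusted P = 4.35e-04) and ATP5PO (adjusted P = 0.00284). UQCRB encodes a small subunit of complex III named for its binding of coenzyme Q, NDUFB4 an accessory subunit of complex I, and ATP5PO the subunit that fixes the head of ATP synthase to its stalk. Within the mammary gland the same 3 genes passed, against 0.697% of all genes, while in the liver, where 12 arrays on 7 slides left 2 residual degrees of freedom, no gene of the array did (0%, with 7.75% at an unadjusted P under 0.05). Of the single probes, 8 of 166 from 6 genes passed, against 1.66% of all probes. Besides NDUFB4, UQCRB and ATP5PO, these were of ATP5F1B (adjusted P = 0.0025 and 0.020), UQCRFS1 (0.00066) and NDUFS6 (0.0073), by the same F test. The tissue differences of ATP5F1B and UQCRFS1 given above average such probes with others that did not pass.

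The clearest case was 1 of the 2 UQCRB probes. Its processed log2 values in the mammary gland were 6.85 to 7.35 on slides 3 and 5 and 9.52 to 10.01 on slides 2, 6 and 7. In the liver they were 7.83 to 8.51 on slides 1, 3 and 5, 10.65 to 11.14 on slides 2, 4 and 7, and 9.25 to 10.13 on slide 8. The low slides thus overlapped no other slide in either tissue, and in the mammary gland they held arrays of all 4 treatments. The other UQCRB probe had within-group standard deviations of 0.35 (liver) and 0.17 (mammary gland), against 1.42 and 1.51 for this one. UQCRB had the largest spread of all 80 genes in both tissues (0.754 and 0.790), and its difference between tissues, -0.52 with an SE of 0.282, did not pass the test.

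For NDUFB4, 2 of 4 probes followed the same slides. One of them had 8.02 to 8.25 on slides 3 and 5 in the mammary gland and 9.56 to 9.83 on slides 2, 6 and 7. The ATP5PO probe concerned had 8.71 to 9.21 against 9.91 to 10.23 on these slides. Leaving out every probe that differed between slides gave 59 subunit genes that passed between the tissues (61.5% of all genes), in place of 58.

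**Figure D4:**
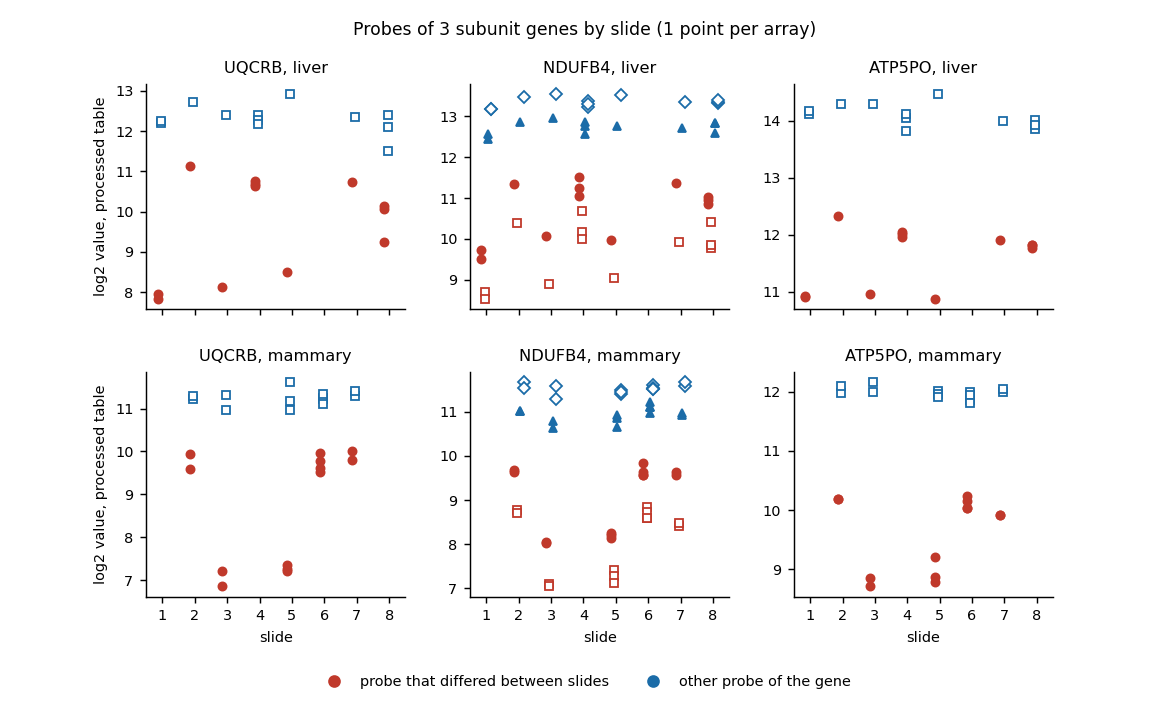
Processed log2 value (y axis) of each probe of UQCRB, NDUFB4 and ATP5PO by slide (x axis), with liver above and mammary gland below; each point is 1 array. Probes that differed between slides are red, and on slides 3 and 5 they lie low in both tissues (UQCRB 6.85 to 7.35 in the mammary gland), whereas the other probes of the same genes, in blue, did not pass the test between slides.

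NDUFA4 had the smallest spread within groups in the liver (SD 0.089), followed by NDUFB8 (0.096) and ATP5F1A (0.107). In the mammary gland the smallest spreads were those of NDUFB9 (0.066), COX5B (0.075) and ATP5ME (0.077). The median spread of the subunits was 0.238 for hepatic and 0.160 for mammary arrays, where all genes had 0.218 and 0.156. Large spreads besides UQCRB were those of the muscle isoforms, COX8B (0.667) and COX7A1 (0.531) in the liver and COX6A2 (0.505) in the mammary gland, and of NDUFB4 (0.496) in the mammary gland.

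The liver arrays of cows 57 and 32 were placed outside the range of the other 10 for many subunits. Both lay above the others for 23 of the 80 genes, against 17.5% of all genes, and below them for 11, against 16.4%. The raised set held 8 of the 15 complex IV genes, and the lowered set none of them. NDUFB3, an accessory subunit of complex I, had 11.76 and 11.56 on these arrays and 12.35 to 12.88 on the others. ATP5MK, a small subunit of ATP synthase, had 14.05 and 13.88 against 14.63 to 15.29. UQCR11, a small subunit of complex III, went the other way, with 14.50 and 14.39 against 13.47 to 14.02. These values are given as a description of both arrays, since they were singled out by their values. The mammary arrays of the same cows had median correlations of 0.985 and 0.987 with the other mammary arrays.

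The vitamin comparisons asked whether weekly B9, B12 or both changed the expression of these genes as compared to saline. No subunit gene passed FDR ≤ 0.05 with a 2-fold change by limma in any of the 6 comparisons or in the 4 of any B9 or any B12, in which the share over all genes was 0% except for B12 in the liver (0.00359%, 1 gene). The smallest adjusted P of a subunit was 0.46, for any B9 in the liver. The largest changes in either direction stayed below 2-fold in all of these comparisons, from -0.50 to 0.53. The 95% interval lay within a 2-fold change for 77, 77 and 71 of the 80 genes in the liver (B9, B12 and B9 + B12) and for 78 in each mammary comparison. All comparisons in a tissue share the same 3 control arrays, and so they are not independent of each other.

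In the liver, most of the changes of the subunits were positive, without passing the test. The median changes for B9, B12 and B9 + B12 were 0.16, 0.10 and 0.09, against 0.02, -0.00 and 0.03 for all genes, with 68, 58 and 53 of the 80 genes positive, against 53.4%, 49.96% and 54.6% of all genes. Without the liver arrays of cows 32 and 57, the medians were 0.11 for B9 and 0.03 for B9 + B12, and that of any B9 went from 0.11 to 0.01. Without the slide scanned later, the B9 + B12 median was 0.02. When the slide entered the fit as a block, the B9 median was 0.27, against 0.07 for all genes, with 56 genes positive and 24 negative. That B9 value rests on the array of cow 57, since those of cows 39 and 41 were the only liver arrays on their slides. The B12 median in this fit was 0.00, with 42 genes positive and 38 negative. By complex, the B9 medians were 0.16 for complex I, 0.02 for II, 0.24 for III, 0.19 for IV and 0.16 for V. Some cell type markers lay apart from the controls in the same liver groups of 2 to 4 arrays, on the summed log2 scale. The 3 endothelial genes had 9.96 to 10.07 in controls, 9.79 to 9.87 with B12 and 10.27 to 10.56 with B9 + B12, and the 3 leukocyte genes 9.396 to 10.05 in controls and 10.31 to 10.35 with B9 + B12. The 10 skeletal muscle genes had 9.84 to 10.07 in controls and 9.60 to 9.73 with B9. The 7 mammary epithelial genes had 10.81 to 10.89 in controls and 11.01 to 11.63 with B9. The 5 adipocyte genes had 9.148 to 9.214 in controls and 9.215 to 9.37 with B9 + B12. The part of these markers in the changes of the subunits was not tested. In the mammary gland the medians were 0.03, 0.04 and -0.02, with 49, 54 and 29 genes positive, against 49.5%, 50.1% and 49.2% of all genes.

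The values of each liver array show what these medians rest on. The median deviation of the 80 genes from their means over the tissue was -0.06, -0.07 and -0.09 for the 3 controls. The B9 arrays had -0.03, 0.08 and 0.18, the B12 arrays -0.10, -0.04, -0.00 and 0.22, and the B9 + B12 arrays -0.05 and 0.15. All 3 B9 arrays and both B9 + B12 arrays lay above every control, whereas the B12 group overlapped them. The median deviation of all genes was -0.0054 to -0.0028 for the controls, -0.012 to 0.030 for B9 and -0.00033 to 0.048 for B9 + B12, so that with both vitamins all genes lay above the controls as well. Cow 57 gave the highest B9 value, cow 32 the higher B9 + B12 value and cow 36 the highest of all, while the spread of such medians within groups of both tissues was 0.079 (SD).

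**Figure D5:**
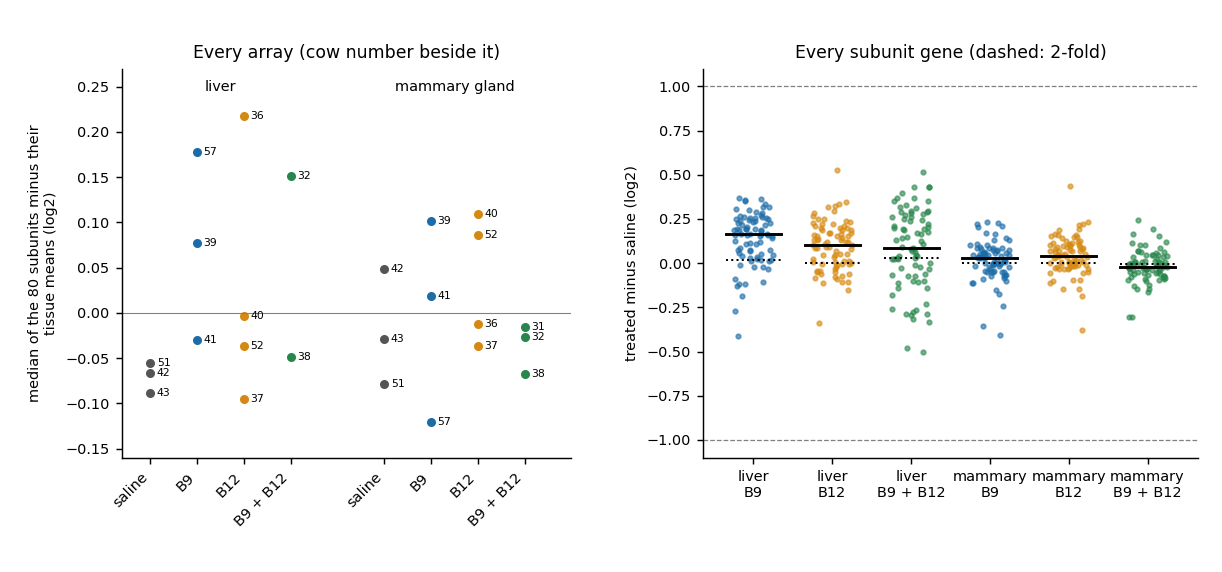
Left, the median deviation of the 80 subunit genes from their tissue means (y axis, log2, processed table) on each array, by tissue and treatment, with the cow number beside each point. Right, the change of each subunit gene against saline (y axis, log2), with its median as a bar, the median of all genes as a dotted line and a 2-fold change dashed; no gene reached 2-fold, and the liver medians were 0.16, 0.10 and 0.09.

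Counts at an unadjusted P under 0.05 depended on whether the slide was in the fit. As a fixed term in the mammary gland it took B12 to 14 subunits higher (5.02% of all genes in either direction) and B9 to 9 higher (4.44%). For B9 in the liver such a count is not given, since only the B9 array of cow 57 shared its slide with other liver arrays. Without the slide, in the liver 1 subunit was higher with B9 (1.73% of all genes were), 2 with B12 (1.06%) and 2 with B9 + B12 (3.32%), and none was lower, against 1.54%, 0.909% and 2.55%. In the mammary gland 1 was higher with B12 (1.31%) and none lower (1.12%), while for B9 none was higher (1.39%) or lower (1.29%) and for B9 + B12 none was higher (1.02%) or lower (1.03%). With any B9 in the liver 2 were higher, NDUFB8 by 0.17 and NDUFA4L2 by 0.40 (5.15%), and 0 lower (4.82%), and with any B12 there 0 were higher (1.69%) or lower (1.08%). Both any-B9 genes were past this limit with the liver arrays of cows 32 and 57 only. NDUFA4L2 had 7.66 and 7.30 on them and 6.43 to 6.996 on the other 10. Without them its change was 0.16 and that of NDUFB8 0.11, while NDUFB6 passed in their place (0.23, 1.6% of all genes higher). Without them none was higher with B9 + B12 (2.08%), where 1 array was left and its spread was taken from the other groups, 3 were higher with B12 (2.14%), and with B9 NDUFB8 stayed higher (1.37%) and COX8B was lower by -0.83 (1.59%), in place of -0.41 with all arrays. In the mammary gland any B9 gave 0 higher (1.7%) and 1 lower (2%), and any B12 1 higher (0.905%) and 0 lower (0.891%). Groups that did not overlap were counted as well. With B9 in the liver 12 genes had all treated arrays above all controls (4.14% of all genes did) and 0 had all below (4.29%). Without cow 57 these counts were 18 (7.33%) and 1 (8.12%), with 2 treated arrays. The 12 were NDUFB8, NDUFB6, NDUFB2, NDUFA7, NDUFA2, NDUFS7, NDUFA4, ATP5MC1, ATP5MC3, COX7B, COX7A2 and COX8A. With B12 in the liver 4 lay above (2.44%) and 0 below (2.69%), and with B9 + B12 12 lay above (12.5%) and 3 below (9.67%), or 23 (23.2%) and 13 (23.1%) for the 1 array left without cow 32. In the mammary gland 2, 2 and 1 lay above (3.71%, 2.28% and 3.54%) and 1, 0 and 2 below (3.38%, 1.72% and 3.62%).

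NDUFB8 is an accessory subunit in the membrane arm of complex I. In the liver it had the smallest P of the subunits with B9, B12 and any B9, but not with any B12 or with both. Its controls had 14.01, 14.06 and 14.02, the B9 arrays 14.39, 14.18 and 14.43, the B12 arrays 14.31, 14.14, 14.23 and 14.32, and the B9 + B12 arrays 14.20 and 14.38. All treated arrays lay above all controls. The B9 change was 0.31 (SE 0.104, adjusted P = 0.88), the B12 change 0.22 (adjusted P = 1.0) and that of B9 + B12 0.26 (adjusted P = 0.66). Without the liver arrays of cows 32 and 57 the B9 change was 0.28 and that of B9 + B12 0.17. In an exact two-sided permutation test the B9 change had P = 0.1, the smallest that 3 against 3 arrays allow. No change of NDUFB8 was apparent in mammary tissue, where controls had 12.25 to 12.38 and B9 arrays 12.10 to 12.52.

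COX4I2 had the smallest P of the subunits in the mammary gland with B12 and with any B12. The controls had 7.20, 7.25 and 7.22, and the B12 arrays 7.79, 7.69, 7.55 and 7.61, without overlap. The change of 0.44 (SE 0.149, 95% interval 0.11 to 0.76) had an unadjusted P of 0.0127 and an adjusted P of 1.0, and the exact permutation P was 0.0286, the smallest for 4 against 3 arrays. In the B9 + B12 group the values were 7.74, 7.29 and 7.22 and overlapped the controls. Over all B12 arrays against all others the change was 0.34 (SE 0.109, adjusted P = 1.0), and in the liver 0.21 (SE 0.113, adjusted P = 1.0). In the liver the B12 arrays had 5.58 to 6.04 and the controls 5.58 to 6.09. The difference of the B12 effect between the tissues, liver minus mammary gland, was -0.53 (unadjusted P = 0.0228, adjusted P = 1.0), whereas that of the B9 + B12 effect was 0.14 (adjusted P = 0.86).

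The other genes that stood first in a comparison did so without passing it. NDUFA1, an accessory subunit needed for the assembly of complex I, had 13.998 and 14.21 with B9 + B12 in the liver against 13.91, 13.69 and 13.66, a change of 0.35 (adjusted P = 0.66, exact permutation P = 0.2), and of 0.25 without the liver arrays of cows 32 and 57. NDUFS1 was the most negative by P in the liver with B12 (-0.11) and with B9 + B12 (-0.26), and ATP5PB, of the stator stalk, with any B9 (-0.25). The B12 change of NDUFS1 ran from -0.207 to 0.0061 with 1 array left out. COX7A1 had 8.60, 8.58 and 8.42 with B9 in the mammary gland against 8.82, 8.63 and 9.23, a change of -0.36 (adjusted P = 1.0, exact permutation P = 0.1), and -0.33 with any B9 (adjusted P = 1.0). The remaining first genes of the mammary comparisons had COX6B1 0.23 and ATP5MC2 0.16 with B9 and any B9, NDUFB3 -0.15 with B12, ATP5F1A 0.12 with B9 + B12 and COX8B -0.17 with any B12. The vitamin effects differed between tissues for no subunit at FDR ≤ 0.05, against 0%, 0.00359% and 0% of all genes for B9, B12 and B9 + B12. At an unadjusted P under 0.05, 2 subunits had a higher effect in the liver with B9 (1.45%) and 0 a lower one (1.12%), 0 and 1 with B12 (0.902% and 0.981%), and 2 and 0 with B9 + B12 (2.75% and 2.73%). Without the liver arrays of cows 32 and 57 these counts were 0 and 1 with B9 (COX8B, -1.004), against 1.06% and 1.08% of all genes, 0 and 1 with B12 (1.45% and 1.66%), and 0 and 0 with B9 + B12 (1.26% and 1.39%). The smallest P values there belonged to NDUFB2 with B9 (0.54, adjusted P = 0.99) and ATP5ME with B9 + B12 (0.46, adjusted P = 0.72), which had 0.47 and 0.26 without these arrays.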

How the data were processed

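Scanner files, which hold the median intensity of every spot, and a processed table of log2 values were deposited by the authors. Per the labels the image software was Feature Extraction 9.1, and per the file headers 10.7.3.1. The processed table lay within 0.0019 (liver) and 0.00096 (mammary gland), by the median, of normexp with an offset of 16 and quantiles within each tissue; this is inferred, since its making is not given in full in the sources used here. Its column medians differ between the tissues, and so it gave the main values of the vitamin comparisons only, and for the tissues 1 of the alternative scalings.

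Liver and mammary gland were compared on the median signal (normexp, offset 50, quantiles over 25 arrays). Spots of a probe, then probes of a gene, were averaged. Names were joined through the reference of another genome build, and no position is given. Limma 3.58.1 (R 4.3.3, with the data.table package, version 1.17.8; figures with matplotlib 3.10.9) fitted all genes with Benjamini-Hochberg adjustment over 27841 genes. Calls were made at an adjusted P of 0.05, with 2-fold in vitamin comparisons, as in the study's methods. 1 gene counted among the 80 is not reported here by name. The slide was tested by limma's F test. Tests were checked on simulated data. The members, lists and named genes were chosen with earlier results of these data known. Genes named were the SDH genes and the isoforms of complex IV, the 8 highest and 8 lowest between tissues, the first gene by P in each direction of each vitamin comparison, and those of largest and smallest spread; others were named after their values were seen.

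The alternatives were other scalings, the brightest probe, dim probes left out, outlier spots kept, the slide or cow as a block, Cyber-T (window 101, confidence 10) and each array left out. Leaving out the liver arrays of cows 32 and 57, the later scan or the probes that differ between slides was added after seeing the data. Replicates are single cows, and their number limits the precision.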

Additional observations from a re-analysis of the deposited data

Results flagged for a closer look

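In groups of 4 arrays, single arrays lay far from the other 3 for 6 of 62 gene and group combinations tested, where chance gives about 1 in 20 and 6.08% (liver) and 5.66% (mammary gland) of all genes of the array had such an array. Of all 80 subunits 8 had one among liver and 5 among mammary arrays. All 6 were in the B12 groups, the only ones of that size. In the liver, ATP5F1A, the catalytic head's alpha subunit, had 15.11 in cow 36 against 14.85 to 14.89, and COX6A2 had 5.382 in cow 37 against 5.68 to 5.69. In the mammary gland, COX6A1 had 11.9 in cow 37 against 12.21 to 12.25. COX7A1 had 9.496 in cow 52 against 8.67 to 8.72. Cow 36 had high mammary values of COX7A2L (10.42 against 9.90 to 9.96) and NDUFB2 (10.54 against 10.19 to 10.24).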

How the results depend on the processing

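The number of subunit genes that passed between liver and mammary gland was 54 to 79 over the alternatives and 57 to 61 with 1 array left out, against 58. The share of all genes that passed was 48.2% where 54 did (slide as a fixed block), 76.4% where 58 did (dim probes left out), 89.0% where 79 did (processed table) and 90.6% where 70 did (normexp at the 75th percentile), against 61.6%, and 60.0% to 62.5% with 1 array left out. The cow as a replicate block gave 58 as a fixed (59% of all genes) and 58 as a random term (61.2%), 56 of them shared in direction with the unpaired fit. Over all genes, the deviations of the tissues of a cow correlated at -0.276 to 0.227 (median 0.046, above 0.1 in 4 of 12 cows). Over the subunit genes alone these correlations ran from -0.598 (cow 52) to 0.738 (cow 42). In the vitamin comparisons no alternative called a subunit, Cyber-T included. With the slide as a fixed block, B12 in the mammary gland had 14 subunits higher and 0 lower at an unadjusted P under 0.05, where 5.02% of all genes passed. B9 there had 9 and 0 (4.44%), and the cause was not tested. For B9 in the liver this block left the array of cow 57 alone to carry the estimate, so no count is given.

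Of the 26 genes lower in the liver, 23 were positive in the processed table (22 of them called higher), 12 with the processed signal (1 called) and 14 with normexp at the 75th percentile (12 called), and none of the 32 higher genes turned. The processed table puts the median of all genes 0.48 higher in the liver, against -0.03 with joint quantiles, and what part of these turns is due to that shift was not tested. In the processed table the tissue difference was positive for UQCRH (1.42), ATP5MC2 (1.15), COX4I1 (1.78), COX6B1 (0.77), COX6B2 (0.14), COX7A2 (1.41), COX8A (1.43), NDUFA11 (1.17), NDUFA1 (1.03) and NDUFA5 (0.60). With the processed signal it was 0.43 for COX4I1, 0.063 for COX7A2 and 0.071 for COX8A, and with normexp at the 75th percentile 0.61, 0.21 and 0.24. With 1 array left out, COX4I1 ranged from -0.131 (without liver B9 + B12 cow 32) to 0.021 (without cow 38), and hepatic NDUFS1 with B12 from -0.207 (without control cow 43) to 0.0061 (without control cow 42). COX6A1 had -0.0035 without the liver arrays of cows 32 and 57. Vitamin calls required a 2-fold change, so smaller ones could not be called, and the median half-width of the 95% interval of a subunit was 0.26 to 0.46 over the 6 comparisons with saline.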

Other observations

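Genes that serve the respiratory chain were compared between the tissues on the same quantile-normalized values, as lists chosen with earlier results known. Values of single genes in these lists are given for joint quantiles only. Of the 26 subunits lower in the liver under that scaling, 23 were positive in the processed table. In the processed table every list median given here lay higher, at 1.59 for the assembly factors, 2.05 for cytochrome c and coenzyme Q, 1.74 for the TCA cycle, 3.87 for propionate use, 1.74 for mitochondrial ribosomal proteins, 1.18 for the regulators and 1.46 for the carriers (-0.02 with joint quantiles), where that of all genes was 0.48 in place of -0.03. Of 35 assembly factors, 17 were higher in the liver and 6 lower, with a median of 0.14. FOXRED1, which acts in the assembly of complex I, was higher by 4.09, and COX15, which makes heme A for complex IV, by 1.71, whereas TMEM70, an assembly factor of ATP synthase, was lower by -1.68. Of 18 genes for cytochrome c and for the synthesis or reduction of coenzyme Q, 11 were higher and 2 lower (median 0.32). The largest differences there were SQOR (2.76), which oxidises sulfide, and ETFDH (2.71), which passes electrons from fatty acid oxidation to coenzyme Q, while COQ2 had -1.01 and CYCS, cytochrome c itself, -0.11 (adjusted P = 0.52). Of 17 genes of the TCA cycle and its entry, 10 were higher and 2 lower (median 0.26), with PC (pyruvate carboxylase) at 1.95, IDH2 at 1.71, CS (citrate synthase) at -1.32 and SUCLA2 at -0.60. The 8 genes of propionate use had the largest median, 2.30, and 7 of them were higher, among them PCCA (3.20), MMUT (2.89), the B12-dependent mutase, and MMACHC (2.75), which processes B12.

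Mitochondrial ribosomal proteins were higher in 43 and lower in 11 of 75 genes (median 0.32), with MRPL23 at 2.88 and MRPL14 at -1.77. Regulators of mitochondrial biogenesis were divided, with 5 higher and 5 lower of 11, PPARA (0.77) and PPARGC1A (0.58) against YY1 (-0.62) and GABPB1 (-0.50), and their median of 0.15 turned to -0.26 with normexp at the 75th percentile. Among 10 carriers and channels of the mitochondrial membranes, UCP2 (1.14) and VDAC1 (1.02) were higher and the adenine nucleotide carriers SLC25A5 (-1.58) and SLC25A6 (-1.30) were lower. Over all genes of the array, 24.9% were higher in the liver and 36.7% lower. No gene of these lists passed in a vitamin comparison.

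Of the remaining cell type lists, 2 of 5 adipocyte genes were higher in the liver and 3 lower, 2 of 3 endothelial genes were higher and 1 lower, 1 of 3 leukocyte genes was higher and 1 lower, and no erythroid gene of 3 passed.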
